A study of Mus musculus with 5 samples.

Results

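Genes of chromatin remodellers and histone modifiers were described in bone marrow pro-B cells with and without *Mef2c*, a gene encoding a transcription factor of B-lymphoid progenitors. Members were chosen by symbol, namely every gene whose name starts with Smarc, Arid, Ino80 or Setd, or with Chd, Baz, Kdm, Kmt or Kat followed by a digit. This rule, which leaves out Kdm5d, took 75 of 17325 genes measured, and no measured level entered it. RNA came from pro-B cells (B220+IgM-CD43+CD24+) that were sorted from marrow of mice aged 9 months and was hybridised to 5 Affymetrix Mouse Genome arrays. Control mice gave 3 of the arrays, and mice with both *Mef2c* alleles floxed and Vav-Cre (Vav-Cre *Mef2c* fl/fl) gave 2. The Vav promoter drives Cre in haematopoietic cells in general, so that *Mef2c* was lost before and outside the B lineage too. Per the methods of the study, controls of the same age had 1 of 3 genotypes, floxed homozygotes (*Mef2c* fl/fl) or heterozygotes (*Mef2c* fl/+) lacking Cre, or Vav-Cre mice that were *Mef2c* fl/+. The labels of the arrays say control and do not give which. A control may therefore carry Cre and 1 deleted allele.

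Remodellers use ATP to slide, eject or exchange nucleosomes, and fall into the SWI/SNF, ISWI, CHD and INO80 families after their motor subunits. Histone modifiers add or remove acetyl and methyl groups on lysines of the histone tails, marks that other proteins read at promoters, enhancers and silenced DNA. In early B cells such proteins are known for opening the immunoglobulin loci for V(D)J recombination and for working with the B-lineage transcription factors.

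The deposited values were made by the authors with robust multiarray averaging (RMA) and stand on a linear scale. They run up to 2322555, with 314 to 430 values per array above the most that a 16-bit scanner records, and so appear to be e raised to the log2 signal of RMA. A deposited fold of 2 is then a 1.62-fold difference in signal. Log2 fold changes below are of the deposited value, *Mef2c*-deficient minus control, unless signal is named. A gene was said to have fallen or risen where limma gave a fold of 2 or more together with an unadjusted p of 0.05 or less. These are the cut-offs of the study, applied here to the deposited value, which is a looser rule than the same cut-offs on signal. At a fold of 2 in signal 14 members fell and none rose (0 of 75), where the rule used here gave 23 and 2. None of the 17325 genes had an adjusted p under 0.05 (0 genes, against 5593 at an unadjusted p of 0.05 or less), and the lowest adjusted p was 0.0895.

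*Mef2c* itself fell by 1.34 on the log2 scale (standard error 0.29, limma adjusted p = 0.0918), and both *Mef2c*-deficient arrays lay below all 3 controls. Its probe set read 14006, 20854 and 17220 in control and still 7379 and 6219 in *Mef2c*-deficient cells, a 1.90-fold difference in signal. B-cell progenitor markers, with 9 of 12 listed genes measured and none called, read 1805 or more on every array. They summed to 389778 to 972897 in controls and to 546681 and 498103 in *Mef2c*-deficient cells. Their median against the control mean was −0.13 and −0.67 on the log2 scale on *Mef2c*-deficient replicates 1 and 2, and −0.44 to 0.50 in control. On replicate 2 *Ebf1* read 3026 and *Blnk* 2661, against 29295 to 35416 and 18899 to 41783 elsewhere. *Ptprc* was highest there, at 9744. T and NK cell markers (10 of 12 measured) summed to 2637 to 4390 on the control arrays and to 3388 on *Mef2c*-deficient replicate 1. On *Mef2c*-deficient replicate 2 they summed to 47934, and 7 of the 10 were higher there than on any other array. Some markers of other lineages were higher there too. Plasmacytoid dendritic cell markers (7 measured) had a median of 1.31 above the control mean on the log2 scale, 4 of them above all other arrays. Their sum there was 214641, against 266874 on *Mef2c*-deficient replicate 1 and 116328 to 359362 in control. Erythroid markers (4 measured) summed to 4625 on that array, against 1502 on *Mef2c*-deficient replicate 1 and 739 to 872 in control. Of these 4, 2 were highest there. Plasma cell markers (6 measured) had a median of −0.23 there against the control mean. Neutrophil and monocyte markers (11 measured) were bright on every array, with sums of 2323720 to 4843336 in control and of 2502372 and 5715896 in *Mef2c*-deficient cells, and 6 of them were highest on replicate 2. The lowest value of any probe set was 3.16 to 4.95 over the 5 arrays, so that no gene of these lists could be at 0. *Mef2c*-deficient replicate 1 stood apart in its hybridisation controls, whose median was 2.69 on the log2 scale above the control mean. That median was 0.72 on *Mef2c*-deficient replicate 2, and 0.23, 0.64 and −0.87 on control replicates 1, 2 and 3. The part of these in the results below was not tested, and values without each array are given where the call of a member rests on it. In sorted bulk samples fewer cells of a type and less RNA per cell cannot be told apart.

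Promoters of 4 members that the results turn on are shown, 3 of genes that fell and 1 of a gene that rose, to let their base composition and motifs be read beside the levels. Each is the 250 bases before a RefSeq start site on build GRCm38.p6, written 5′ to 3′ on the strand of the gene, with motifs found by a search of both strands in capitals. *Smarca5*, the ISWI motor, at chr8:80739460-80739709 on the minus strand, held 29 CpG and none of the 5 motifs searched. *Baz1b*, its partner, at chr5:135187073-135187322 on the plus strand, held a CCAAT motif, as did *Ino80* at chr2:119477688-119477937 on the minus strand. *Smarcd3*, at chr5:24602003-24602252 on the minus strand, held 38 CpG and the E-box CAGCTG.
Smarca5: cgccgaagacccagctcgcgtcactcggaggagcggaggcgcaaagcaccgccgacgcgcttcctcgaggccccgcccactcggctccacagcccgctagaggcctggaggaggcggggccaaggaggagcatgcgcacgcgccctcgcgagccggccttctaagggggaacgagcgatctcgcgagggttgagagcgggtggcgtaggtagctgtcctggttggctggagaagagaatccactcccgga
Baz1b: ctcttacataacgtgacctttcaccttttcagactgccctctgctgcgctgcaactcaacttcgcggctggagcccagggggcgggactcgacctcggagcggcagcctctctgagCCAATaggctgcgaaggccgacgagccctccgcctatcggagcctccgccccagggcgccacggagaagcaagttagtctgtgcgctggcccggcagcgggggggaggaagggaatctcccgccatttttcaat
Ino80: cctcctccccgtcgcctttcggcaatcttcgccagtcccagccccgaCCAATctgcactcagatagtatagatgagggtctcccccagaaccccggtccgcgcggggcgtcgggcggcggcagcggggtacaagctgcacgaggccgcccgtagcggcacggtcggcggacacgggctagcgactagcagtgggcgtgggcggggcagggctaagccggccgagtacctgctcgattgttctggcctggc
Smarcd3: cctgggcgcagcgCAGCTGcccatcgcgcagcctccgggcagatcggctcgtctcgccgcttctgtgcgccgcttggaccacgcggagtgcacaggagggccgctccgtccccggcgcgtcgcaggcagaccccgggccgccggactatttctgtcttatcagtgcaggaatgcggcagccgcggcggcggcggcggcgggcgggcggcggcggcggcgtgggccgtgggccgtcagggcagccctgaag

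The set of RefSeq promoters used here held 58 of the 75 members (78 promoters). The motifs searched were the MEF2 motif, the E-boxes CAGCTG and CAGGTG, a form of the Ebf1 site (TCCC and GGGA with any 2 bases between) and CCAAT, each searched apart from the others. The MEF2 motif was in 1 of the 78 member promoters (1.28%) and in none of the 30 promoters of members that fell (0 of 30), against 1.93% of the promoters of genes tested and 2.92% of all promoters. CCAAT was in 42.3% of member promoters and in 46.7% of those of members that fell, against 34.7% of promoters of genes tested and 33.8% of all. The 30 promoters of members that fell came from 18 genes, as each start site of a gene was counted apart. CAGCTG was in 12.8% of member promoters and CAGGTG in 17.9%, against 12.9% and 17.3% of promoters of genes tested, and 13% and 17.2% of all. In promoters of members that fell these shares were lower, at 6.67% and 13.3%. The Ebf1 form was in no member promoter (0 of 78), against 0.923% of promoters of genes tested and 0.779% of all. The median CpG number was 19 in member promoters, 22 in those of members that fell and 12 in promoters of genes tested. These matches describe the 250 bases alone.

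In *Mef2c*-deficient pro-B cells, 23 of the 75 members fell, 2 rose and 50 did not pass. The share that fell was 30.7%, against 16.7% of all genes, and the share that rose was 2.67%, against 9.65%. A total of 62 members had a negative log2 fold change and 13 a positive one, against 8432 and 8893 of all genes. Of the members, 28 were positive after a further quantile normalization, 31 after cyclic loess and 32 after centring on housekeeping genes. The median log2 fold change of the members was −0.93, against 0.04 over all genes. Both *Mef2c*-deficient arrays were below all 3 controls in 48 members (64%), against 28.4% of all genes, and above all 3 controls in 6 members (8%), against 25.9%. At an adjusted p under 0.10, 11 members were lower and 1 was higher, 12 together (16%), against 12% of all genes. The share that fell at a fold of 2 in signal was 18.7%, against 10.6% of all genes, and 4.34% of all genes rose by that rule.

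**Figure D1:**
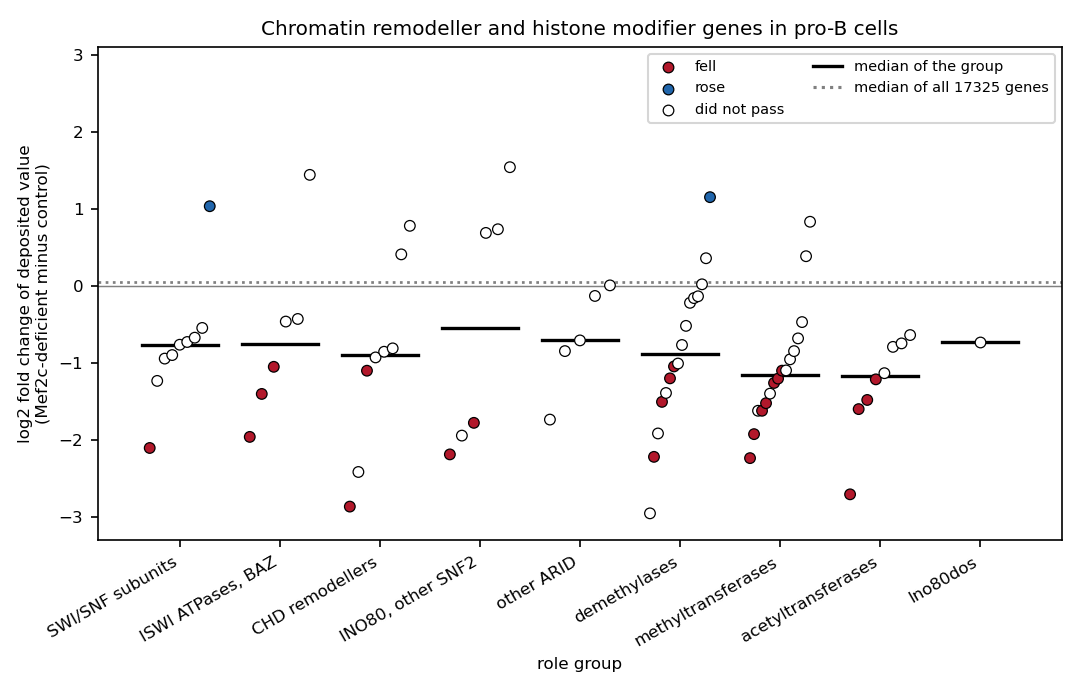
Log2 fold change of the deposited value, *Mef2c*-deficient minus control (vertical axis), of each of the 75 members in 9 role groups (horizontal axis); filled points passed the thresholds, bars are group medians and the dotted line is the median of all genes. Most members lie below 0, and each group median lies below the 0.04 of all genes; after cyclic loess the medians of the remodeller and ARID groups were positive.

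The members were mostly abundant transcripts, and abundant genes in general were mostly lower on the *Mef2c*-deficient arrays. Their median level stood at the 78.3 percentile of all genes, and 61 of the 75 were at or above the median gene. Among genes at or above the median level, fitted alone, 21 of 61 members fell (34.4%), against 29.9% of such genes, a share near the background. The median log2 fold change above the median level was −0.95 in members and −0.86 in all genes. In the brightest of 5 equal groups by level, 11 of 36 members fell (30.6%), against 36.9% of genes, and in the next group 6 of 22 (27.3%), against 29.7%. Few members were dim. In the third group 2 of 8 members fell, against 12.6% of genes, in the fourth 3 of 6, against 3.84%, and in the dimmest 1 of 3, against 0.606%. In this last group the median was 0.38 in members and 0.63 in all genes, and in the fourth −0.51 and 0.58. Of all genes, 0.26%, 2.97%, 11.8%, 17.3% and 15.8% rose from the brightest group to the dimmest.

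**Figure D2:**
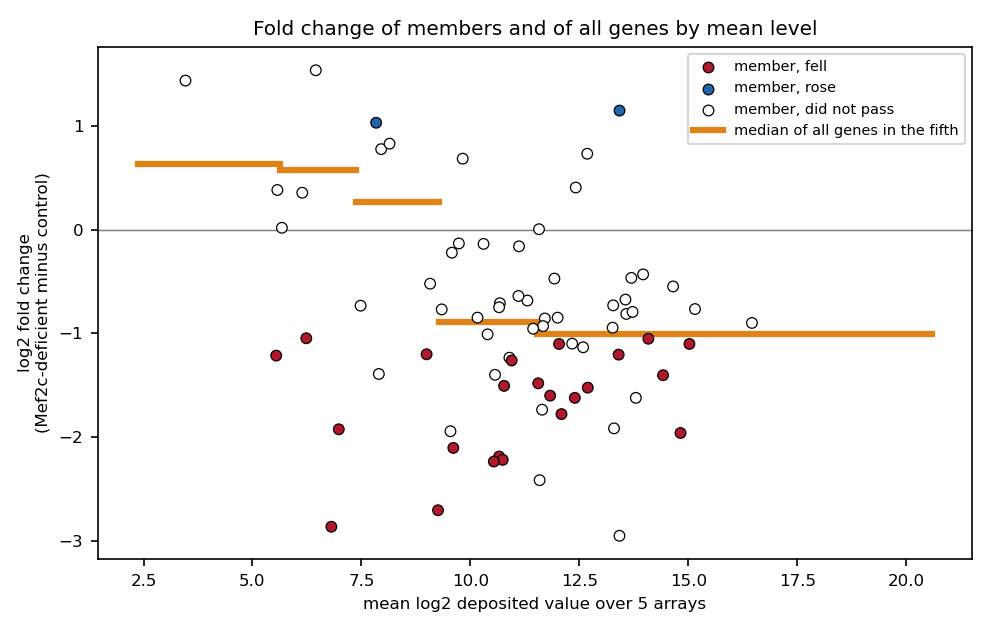
Log2 fold change of each member (vertical axis) by its mean log2 deposited value over the 5 arrays (horizontal axis), with the median of all genes in 5 equal groups by level as orange lines. In the 2 brightest groups the member medians of −0.998 and −0.90 sit beside the all-gene medians of −1.01 and −0.89.

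The ISWI remodellers, which space nucleosomes, fell in 3 of 6 members. Of all genes 16.7% fell, and 36.9% of those in the brightest of 5 level groups. The group median was −0.76, against −0.86 over all genes at or above the median level. *Smarca5*, the main ISWI motor (SNF2H), read 33628, 26696 and 37476 in control and 14180 and 10497 in *Mef2c*-deficient pro-B cells. Both *Mef2c*-deficient arrays were under every control, and the log2 fold change was −1.40 (standard error 0.30, unadjusted p = 0.00503, limma adjusted p = 0.0907). *Baz1b* (WSTF), which pairs with *Smarca5* in the WICH complex, read 64492, 42096 and 45346 in control. It read 20802 and 7843 in *Mef2c*-deficient pro-B cells, wider apart than the controls and below each of them. The log2 fold change of *Baz1b* was −1.96 (0.50, unadjusted p = 0.0111, limma adjusted p = 0.0988). *Baz1a* (ACF1), the partner of the ACF and CHRAC complexes, went from 26676, 23038 and 20273 to 10598 and 11802, a log2 fold change of −1.05 (0.26, unadjusted p = 0.00931, limma adjusted p = 0.0958). *Baz2a* and *Baz2b*, partners in silencing of ribosomal DNA and related complexes, had log2 fold changes of −0.43 and −0.46 and did not pass. *Smarca1*, the other ISWI motor, was the dimmest member, at 6.66, 7.80 and 7.80 in control and 51.7 and 7.80 in *Mef2c*-deficient pro-B cells, so that its positive log2 fold change of 1.44 came from 1 array and did not pass. The calls of *Smarca5* and *Baz1b* held without each array in turn. *Baz1a* kept its p but not a fold of 2 without control replicate 1 (−0.95) or *Mef2c*-deficient replicate 1 (−0.97).

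*Ino80*, the motor of the complex that evicts and exchanges H2A.Z nucleosomes, fell from 2175, 2957 and 4050 in control to 842 and 502 in *Mef2c*-deficient pro-B cells. The groups were well separated, with a log2 fold change of −2.19 (standard error 0.40, unadjusted p = 0.00288, limma adjusted p = 0.0897), or 2.86-fold in signal. *Ino80d*, a further subunit, fell from 8233, 6110 and 7195 to 3252 and 1326, a log2 fold change of −1.78 (0.45, limma adjusted p = 0.0986). *Ino80e* read 928, 1156 and 1942 in control and 732 and 150 in *Mef2c*-deficient pro-B cells and did not pass (limma unadjusted p = 0.0511). Leaving out any 1 array kept the calls of *Ino80* (log2 fold changes of −2.56 to −1.82) and *Ino80d* (−2.43 to −1.13). Other subunits had positive values. *Ino80c* read 3936, 5750 and 6761 in control and 9047 and 8748 in *Mef2c*-deficient pro-B cells, above every control, at a log2 fold change of 0.73 that did not pass (limma unadjusted p = 0.072). *Ino80b* overlapped between the groups at 0.69. *Smarcal1*, a motor that rewinds DNA at stalled forks, read 56.4 to 57.4 in control, 502 on *Mef2c*-deficient replicate 1 and 55.0 on replicate 2, and did not pass at 1.54. The opposite-strand transcript *Ino80dos* read 92.99 and 186 against 172 to 327 in control and did not pass at −0.73.

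Of 9 SWI/SNF subunits, which form the BAF and PBAF complexes, 1 fell, 1 rose and 7 did not pass. The shares over all genes were 16.7% that fell and 9.65% that rose. *Smarce1* (BAF57) fell from 1594, 1682 and 1018 to 585 and 180, a log2 fold change of −2.11 (standard error 0.59, unadjusted p = 0.0154, limma adjusted p = 0.106). *Smarcd3* (BAF60c), a subunit known from heart and muscle, rose from 133, 165 and 232 to 284 and 435, with both *Mef2c*-deficient arrays above the controls, at 1.03 (0.37, unadjusted p = 0.0381, limma adjusted p = 0.139). It is a scarce transcript, below the array median on 4 of the 5 arrays, and did not pass without control replicate 1 (0.85) or 2 (1.004), nor without *Mef2c*-deficient replicate 2 (0.73). *Smarce1* did not pass without control replicate 1 (−2.01) or control replicate 2 (−1.97). The motor *Smarca4* (BRG1) read 98018, 67637 and 231200 in control and 99939 and 38241 in *Mef2c*-deficient pro-B cells. These ranges overlapped, and its log2 fold change of −0.90 had a 95% interval from −2.69 to 0.89. The core subunits *Smarcb1* and *Smarcc1* were below all controls on both arrays, at −0.55 and −0.77, and did not reach a fold of 2. *Arid1a*, the subunit that defines BAF, read 14272, 11494 and 12649 in control and 7380 and 5947 in *Mef2c*-deficient pro-B cells, a log2 fold change of −0.95 that passed limma's p (0.0147, unadjusted) and not the fold. *Arid2*, the corresponding subunit of PBAF, did not pass p at −1.23 (limma unadjusted p = 0.0612). Both passed without *Mef2c*-deficient replicate 1, *Arid1a* at −1.10 and *Arid2* at −1.99, and without replicate 2 *Arid2* was at −0.48. *Arid1a* also passed without control replicate 2 (−1.02).

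Among 8 CHD remodellers, 2 fell, against 16.7% of all genes, and 6 did not pass. The group median was −0.89, against −0.86 over all genes at or above the median level. *Chd9* had the lowest p of the members, and went from 372, 166 and 247 in control to 32.7 and 35.5. Its log2 fold change was −2.87 (standard error 0.41, unadjusted p = 0.000853, limma adjusted p = 0.0895), at levels below the array median on 4 of the 5 arrays, and it passed without each array in turn. *Chd8*, an ATPase that binds beta-catenin and CTCF, fell by 1.10 on the log2 scale (0.40, unadjusted p = 0.0411, limma adjusted p = 0.143), from 4285, 5248 and 8170 to 3336 and 2101. It passed without control replicate 1 and not without any of the other arrays, where its log2 fold change was −1.16, −0.84, −1.44 and −0.77. *Chd4*, the motor of the repressor complex NuRD, read 11343, 13037 and 24073 in control and 6774 and 11164 in *Mef2c*-deficient pro-B cells. Both lay below the controls, the nearer by a small margin, and the log2 fold change of −0.81 (95% interval −1.97 to 0.35) did not pass. *Chd3*, the alternative NuRD motor, had 4562 on *Mef2c*-deficient replicate 1, as on 1 control, and 277 on replicate 2. *Chd5* and *Chd6* had positive log2 fold changes, 0.78 and 0.41, and did not pass.

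None of the 5 other ARID proteins passed (0 of 5), where 16.7% of all genes fell and 9.65% rose. *Arid3a* (Bright), which binds AT-rich DNA at the immunoglobulin heavy-chain locus, read 883 on each of the 3 control arrays and 784 and 829 in *Mef2c*-deficient pro-B cells. Equal values on all 3 controls leave it no spread there, and its log2 fold change was −0.13 (95% interval −0.71 to 0.45). *Arid5b*, a cofactor of the demethylase PHF2, passed limma's p (0.0245, unadjusted) and not the fold at −0.85. *Arid4b*, a subunit of SIN3 complexes, ran from 2851 to 12287 in control and from 363 to 6634 in *Mef2c*-deficient pro-B cells.

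**Figure D3:**
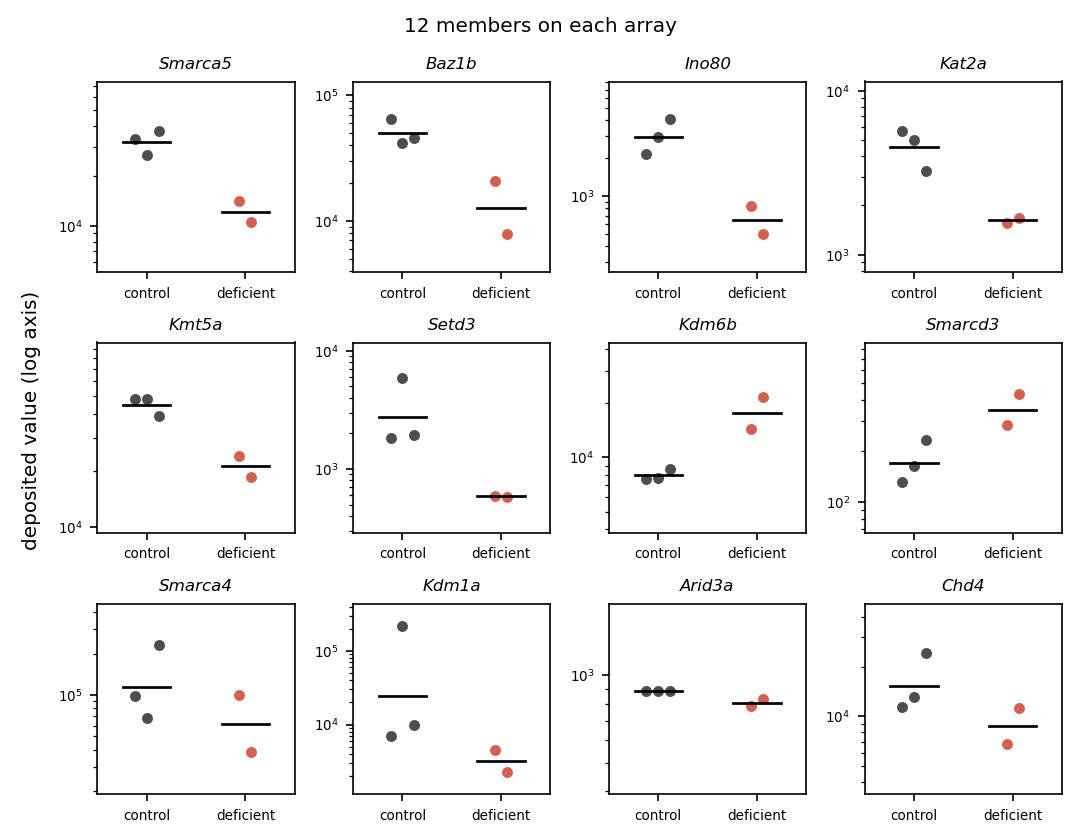
Deposited value (vertical log axis) of 12 members on each array, with 3 control (grey) and 2 *Mef2c*-deficient (red) points and a bar at the mean of log2 values. The groups are apart in the first 8 genes, overlap in *Smarca4*, and *Kdm1a* shows 1 control array far above the others.

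Methyltransferases and SETD proteins were lower in 14 of 16 members, of which 7 fell, and in 12 of 16 after quantile normalization, cyclic loess or housekeeping centring. None rose, and the median was −1.15, against −0.30, −0.19 and −0.34 under those scalings. All genes at or above the median level had a median of −0.86 in the reported fit. In that fit 16.7% of all genes fell and 9.65% rose, and 36.9% of the brightest of 5 level groups fell. *Kmt5a*, the only known enzyme for H4K20 monomethylation whose protein follows the cell cycle, fell from 48142, 48490 and 39407 to 23867 and 18541. This tight separation gave a log2 fold change of −1.10 (standard error 0.27, unadjusted p = 0.00909, limma adjusted p = 0.0958). *Kmt5b*, which adds further methyl groups to H4K20, fell by 1.93 on the log2 scale (0.52, limma adjusted p = 0.104), from 205, 131 and 369 to 69.9 and 45.9, dim values on both *Mef2c*-deficient arrays. Its relative *Kmt5c* passed p and not the fold at −0.85. Of the KMT2 family, which methylates H3K4, *Kmt2d* fell from 6287, 6287 and 15183 to 3519 and 2133, at −1.62 (0.52, unadjusted p = 0.0265, limma adjusted p = 0.123). *Kmt2e*, a divergent member of that family, fell by 1.21 on the log2 scale (0.46, limma adjusted p = 0.152), the highest adjusted p among the members called. *Kmt2a* (MLL1) read 17587, 21187 and 29587 in control and 14165 and 3690 in *Mef2c*-deficient pro-B cells. Both were below the controls but 1 far more than the other, and −1.62 (95% interval −3.27 to 0.02) did not pass. Without *Mef2c*-deficient replicate 2 the log2 fold change was −0.92 in *Kmt5a*, −1.62 in *Kmt5b*, −1.26 in *Kmt2d* and −0.96 in *Kmt2e*, and none of them passed. Without *Mef2c*-deficient replicate 1, *Kmt5b* (−2.23), *Kmt2d* (−1.98) and *Kmt2e* (−1.45) did not pass and *Kmt2a* did (−2.59). *Kmt2e* also failed without control replicate 1 (−1.20) or 3 (−0.88).

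*Setdb1*, which methylates H3K9 and silences endogenous retroviruses, fell from 2801, 2388 and 3271 to 863 and 1577, at −1.26 (standard error 0.36, unadjusted p = 0.0174, limma adjusted p = 0.109). *Setd3*, now known as a methyltransferase of actin, fell from 1841, 5881 and 1942 to 596 and 576, at −2.24 (0.59, limma adjusted p = 0.101). Control replicate 2 was the outlying array there, and both *Mef2c*-deficient values stayed under the lowest control. *Setd6*, which methylates the NF-kB subunit RelA, fell from 12431, 6908 and 11939 to 2818 and 4362, at −1.52 (0.40, limma adjusted p = 0.1). None of these 3 passed without *Mef2c*-deficient replicate 1, at −0.83, −2.26 and −1.21 in the order named. *Setd3* did not pass without *Mef2c*-deficient replicate 2 (−2.21), nor *Setdb1* without control replicate 1 (−1.26) or 3 (−1.15). *Setd4* and *Setd1a* were the members of this group with positive log2 fold changes, 0.83 and 0.38, and did not pass.

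All 8 acetyltransferases had negative log2 fold changes, which 6, 5 and 5 kept after quantile normalization, cyclic loess and housekeeping centring. The values ran from −2.71 to −0.64 with a median of −1.17, against −0.86 over all genes at or above the median level. Of the 8, 4 fell, against 16.7% of all genes and 36.9% of the brightest of 5 level groups. *Kat2a* (GCN5), the acetyltransferase of SAGA and ATAC, fell from 5698, 5017 and 3260 to 1571 and 1677. The *Mef2c*-deficient arrays differed little, and the log2 fold change was −1.48 (standard error 0.33, unadjusted p = 0.00661, limma adjusted p = 0.0938). *Kat14*, a further ATAC subunit, fell in the same manner, from 5187, 4169 and 8406 to 1899 and 1837, at −1.60 (0.37, unadjusted p = 0.00779, limma adjusted p = 0.0938). *Kat5* (TIP60), known for acetylating histones and ATM at DNA breaks, read 1754, 780 and 1585 in control and 459 and 86 in *Mef2c*-deficient pro-B cells, at −2.71 (0.82, unadjusted p = 0.0212, limma adjusted p = 0.115). *Kat6b* (MORF) fell by 1.21 on the log2 scale (0.31, limma adjusted p = 0.0993), but from 57.4, 86.0 and 56.4 to 25.3 and 31.3, below the array median on all 5 arrays. *Kat6a* (MOZ) read 6264 and 14979 in *Mef2c*-deficient pro-B cells against 14350 to 22951 in control, and overlapped. *Kat7* (HBO1) was below the controls on both arrays, if narrowly on 1, and did not pass at −1.13 (95% interval −2.57 to 0.30). The call of *Kat2a* held without each array in turn. *Kat14* (−1.58) and *Kat5* (−1.50) did not pass without *Mef2c*-deficient replicate 2, nor *Kat5* without control replicate 1 (−2.49) or 3 (−2.56), nor *Kat6b* without *Mef2c*-deficient replicate 1 (−1.06).

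Of 16 lysine demethylases, 4 fell, 1 rose and 11 did not pass, where 16.7% of all genes fell and 9.65% rose. The group median was −0.89, against −0.86 over all genes at or above the median level. *Kdm6b* (JMJD3), which removes methyl groups from H3K27 and is known as an inducible gene, rose from 7637, 7682 and 8590 in control to 14434 and 21621 in *Mef2c*-deficient pro-B cells. It was the only abundant member above all 3 controls that passed, with a log2 fold change of 1.15 (standard error 0.29, unadjusted p = 0.0101, limma adjusted p = 0.097), or 1.74-fold in signal. Without *Mef2c*-deficient replicate 2 it stayed past p but under a fold of 2, at 0.86. Its relative *Kdm6a* (UTX) was lower on both arrays, at −0.52, and did not pass. *Kdm2b*, which removes methyl groups from H3K36 and binds CpG islands, fell from 2834, 1901 and 5888 to 997 and 463, at −2.22 (0.62, limma adjusted p = 0.106). The H3K4 demethylase *Kdm5a* fell by 1.20 on the log2 scale (0.43, limma adjusted p = 0.139), and the H3K9 demethylase *Kdm3a* by 1.51 (0.55, limma adjusted p = 0.144). *Kdm4a*, an H3K9 and H3K36 demethylase, fell by 1.05 (0.25, limma adjusted p = 0.0957) at values of 86.3 to 109 in control and of 47.7 and 49.8, below the array median on all 5 arrays. *Kdm2b* (−1.67), *Kdm3a* (−0.67) and *Kdm5a* (−1.49) did not pass without *Mef2c*-deficient replicate 2. *Kdm3a* passed without *Mef2c*-deficient replicate 1 alone, *Kdm5a* without control replicate 1 alone, and *Kdm4a* fell just under a fold of 2 without control replicate 1 or 2 (−0.99 each).

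*Kdm1a* (LSD1), a demethylase of H3K4 that acts with CoREST, had the lowest log2 fold change of all members, −2.95, and did not pass (95% interval −7.10 to 1.20, limma unadjusted p = 0.127). It read 6988, 220113 and 9933 in control and 4464 and 2297 in *Mef2c*-deficient pro-B cells, and without control replicate 2 its log2 fold change was −1.38, still not passing. *Kdm5c* was the only member with more than 1 probe set among the deposited values, where 1.64% of all genes had more than 1. Each other member was read from 1 probe set, and the 2 of *Kdm5c* disagreed. The brighter read 1186, 1413 and 1337 in control and 1102 and 1287 in *Mef2c*-deficient pro-B cells (−0.14), and the dimmer 127, 118 and 90.0 against 321 and 429 (1.75).

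The 2 *Mef2c*-deficient arrays differed in how far they lay below control. They were over 2-fold apart in 27 members (36%), against 36.9% of all genes, and in 20 of the 27 replicate 2 was the lower. Among members that fell this held for 6, namely *Baz1b*, *Smarce1*, *Ino80d*, *Kat5*, *Kdm2b* and *Kdm3a*. Control replicate 3 was the highest control in 45 members (60%), against 33.7% of all genes. Without *Mef2c*-deficient replicate 2, the array with the highest T and NK cell markers, the median log2 fold change of the members was −0.79, against −0.0086 over all genes. Of the 6, *Baz1b*, *Smarce1* and *Ino80d* still passed then. Without *Mef2c*-deficient replicate 1 that median was −0.96, against 0.04 over all genes. Each of these fits leaves 1 *Mef2c*-deficient array. Some of the 50 members that did not pass lay further from 0 in them. Without *Mef2c*-deficient replicate 1 these included *Chd5* (1.29), *Chd3* (−4.44), *Arid4b* (−3.83), *Ino80e* (−3.09) and *Kmt5c* (−1.16). Without *Mef2c*-deficient replicate 2 they included *Smarca1* (2.80), *Smarcal1* (3.13) and *Kat6a* (−1.42). Of the 23 members, 6 passed without each array in turn, namely *Smarca5*, *Baz1b*, *Chd9*, *Ino80*, *Ino80d* and *Kat2a*.

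**Figure D4:**
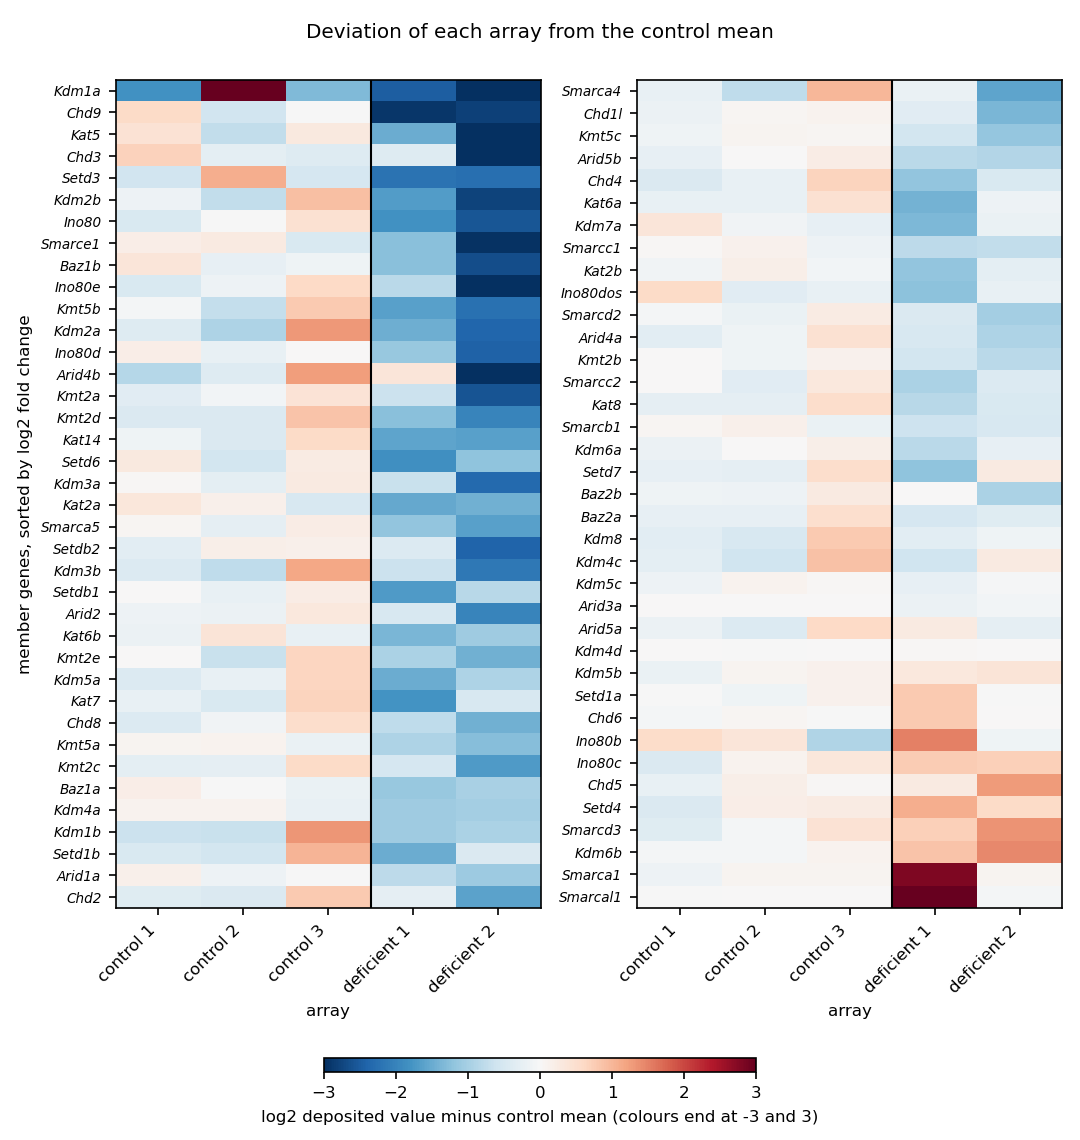
Each of the 75 members (rows, sorted by log2 fold change over both panels) on each of the 5 arrays (columns), coloured by its log2 deposited value minus the control mean, with colours ending at −3 and 3. Blue in both deficient columns marks the 58 members (77.3%, against 40.8% of all genes) lower than the control mean on both arrays, and the deepest blue lies mostly in replicate 2.

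The scaling of the arrays changed how many members fell. After a further quantile normalization 9 of the 23 still passed, namely *Smarce1*, *Chd9*, *Ino80*, *Kdm2b*, *Kdm4a*, *Kmt5b*, *Setd3*, *Kat5* and *Kat6b*, and after cyclic loess the same genes without *Setd3*. Of all genes, 7.83% and 7.94% fell under these 2 scalings. The median log2 fold change of the members was then −0.20 and −0.15. The medians of the SWI/SNF (0.0021 and 0.18), ISWI (0.14 and 0.27), CHD (0.021 and 0.090), INO80 (0.23 and 0.11) and other ARID groups (0.096 and 0.090) turned positive, while that of the demethylases moved from −0.89 to −0.46 and −0.50, and to −0.077 with housekeeping centring, where 8 of the 16 were positive. *Smarca5* did not pass at −0.53 and −0.41, nor *Kmt5a* at −0.30 and −0.15, nor *Kat2a* at −0.58 and −0.52. Centred on 9 measured housekeeping genes, which moved the median of all genes from 0.04 to 0.85, 3 members fell (*Ino80*, *Chd9* and *Kat5*) and 10 rose. Of all genes, 3.67% fell and 42.4% rose with this centring. *Kdm6b* rose under each of these scalings, at 2.05, 2.19 and 1.96. *Smarcd3* rose after housekeeping centring, at 1.85, and did not pass after quantile normalization at 1.01 or cyclic loess at 0.77.

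**Figure D5:**
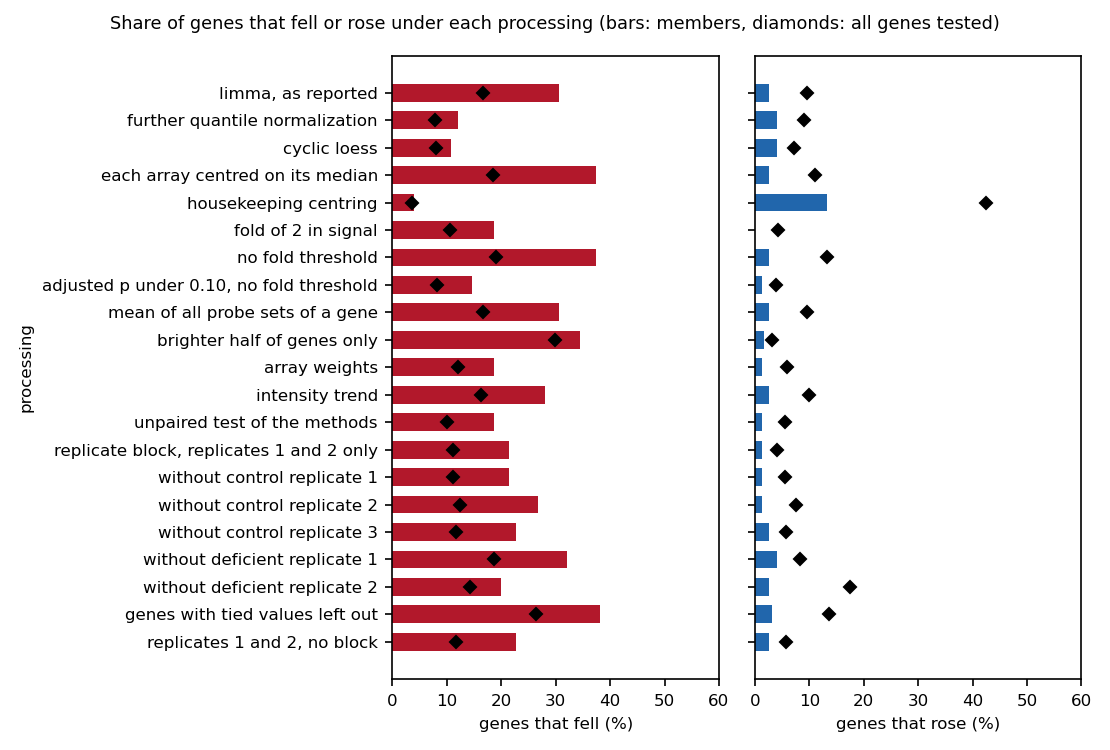
Percent of members (bars) and of all genes tested (diamonds) that fell (left) and rose (right) under each processing, from the reported fit at the top to added alternatives at the bottom. The share of members that fell was above that of all genes in every row, by most with array medians as centre and by least with housekeeping centring and cyclic loess.

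Partner genes that the name rule leaves out, taken from a list of complex subunits and related enzymes, were read beside the members. Of 67 measured, 26 fell, 4 rose and 37 did not pass. The shares were 38.8% and 5.97%, against 16.7% and 9.65% of all genes, and the median log2 fold change was −1.08, against 0.04. Among genes at or above the median level, fitted alone, 25 of 60 partner genes fell, against 29.9% of such genes. Without each control array in turn, 15 to 20 partner genes fell and 2 to 4 rose, against 11.2% to 12.5% and 5.58% to 7.48% of all genes. Without each of the 5 arrays in turn, 11 of the 26 and 1 of the 4 (*Hr*) passed every time. In the ISWI, INO80 and SRCAP complexes 5 of 11 fell and none rose (0 of 11). *Ruvbl1* and *Ruvbl2*, the paired ATPases shared by INO80 and the TIP60 complex, fell by 2.12 and 2.30 on the log2 scale, the latter from 33212, 31728 and 28875 to 10222 and 3913. *Chrac1*, a histone-fold subunit of the CHRAC complex of *Smarca5* and *Baz1a*, fell by 2.17, and *Ep400* and *Bptf*, large subunits of the TIP60 and NURF complexes, by 1.42 and 1.01. In NuRD, 5 of 11 subunits fell, among them the deacetylases *Hdac1*, from 51576, 44027 and 57668 to 20438 and 8083, and *Hdac2*, while *Gatad2b* rose by 1.03 with a tie between 2 control arrays.

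Of 12 measured COMPASS subunits and further methyltransferases, 6 fell and none rose (0 of 12), against 16.7% and 9.65% of all genes. *Wdr5*, a scaffold of KMT2 complexes, fell from 10506, 10345 and 12133 to 4160 and 3079, at −1.62 (standard error 0.27, limma adjusted p = 0.0895). *Men1*, the menin subunit of the *Kmt2a* and *Kmt2b* complexes, fell by 1.98 (0.28, limma adjusted p = 0.0895), and the H3K9 methyltransferases *Ehmt1* and *Ehmt2* by 1.10 and 1.47. Among 14 acetyltransferases and their partners 6 fell, including *Trrap*, the scaffold of the TIP60 and SAGA complexes, by 1.13, and *Msl1*, the scaffold of the *Kat8* complex, by 1.40. In SWI/SNF, 3 of 12 partner subunits fell, the actin-related *Actl6a*, the PBAF subunit *Phf10* and the BAF subunit *Ss18*, and 2 rose, *Actl6b* from 103, 98.0 and 24.98 to 281 and 254 and *Dpf3* from 777, 777 and 387 to 2558 and 1086. *Actl6b* and *Dpf3*, like *Smarcd3*, are subunits best known from BAF complexes of nerve or muscle. *Actl6b* lay below the array median on all 5 arrays, in a level group where 17.3% of all genes rose. Of 7 further JmjC proteins the nucleolar oxygenase *Riox1* fell by 2.01 and the corepressor *Hr* (hairless) rose by 1.91. Under each of the 3 rescalings *Chrac1*, *Ruvbl2*, *Men1* and *Riox1* still fell and *Dpf3*, *Gatad2b* and *Hr* still rose, while *Wdr5*, *Hdac2*, *Ep400* and *Trrap* passed in none of them. Of the partner genes described, *Ruvbl1*, *Ruvbl2*, *Chrac1*, *Ep400*, *Hdac1*, *Wdr5*, *Men1*, *Ehmt2*, *Msl1*, *Riox1* and *Hr* passed without each array in turn. Without *Mef2c*-deficient replicate 2 *Hdac2* (−1.07), *Trrap* (−0.72), *Actl6a* (−1.06), *Ss18* (−0.87), *Actl6b* (2.15) and *Gatad2b* (0.83) did not pass. Leaving out *Mef2c*-deficient replicate 1 lost *Bptf* (−0.79), *Phf10* (−1.08), *Actl6b* (2.01) and *Dpf3* (0.82). Without control replicate 1 *Hdac2* (−1.63), *Trrap* (−1.12), *Actl6a* (−2.39), *Ss18* (−1.48) and *Dpf3* did not pass, and the last 3 did not without control replicate 2 either, *Actl6a* at −2.19 and *Ss18* at −1.48. Without control replicate 3 *Hdac2* (−1.45), *Trrap* (−1.06), *Actl6a* (−1.81), *Ss18* (−1.13), *Dpf3* (1.10), *Bptf* (−0.89), *Ehmt1* (−0.98) and *Gatad2b* (0.98) did not pass.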

How the data were processed

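RNA of sorted pro-B cells was measured on 3 control and 2 *Mef2c*-deficient Affymetrix arrays. Per the methods of the study the authors made background-adjusted, quantile-normalized and summarized RMA values. The deposited intensity is on a linear scale (see the report for its base), with natural logs from 1.15 to 14.7. Versions of RMA and limma used upstream are not given in the sources used here, and the number of arrays limits the precision. The methods drop probe sets whose detection calls were absent or marginal in over 4 replicates. Of 23835 probe sets in the table, 17623 had 1 symbol in GEO's platform annotation, 516 had several and 5696 were unnamed here. The probe set with the highest mean log2 value stood for a gene. Limma 3.58.1 in R 4.3.3 (lmFit and eBayes) was run on log2 of the deposited intensity over all 17325 genes, with Benjamini-Hochberg adjustment, no covariate and no filter on dim genes, and was tested on simulated data. Nothing in the labels says that samples came from separate animals, so that p-values measure the spread between samples, although the methods call them independent.

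Members and lists were chosen with earlier results of these data known. Named genes are all members that passed plus a list of catalytic or defining subunits, of which *Smarca2*, *Chd1* and *Setd2* were not analysed here. In all, 13 listed symbols found no match, among them *Setd8*, an older symbol of *Kmt5a*. Other members were named within a count of their group. Promoters came from a set of RefSeq start sites (GRCm38.p6) that held no match for 17 members. Replicate numbers 1 and 2 occur in both groups, with no label that pairs them. Alternatives were the scaling of the arrays, the fold threshold, the call rule, the probe sets per gene, a level filter, array weights, an intensity trend, the unpaired test of the methods, a replicate block and each array left out. Genes with tied values left out, and the arrays of the block without it, were added after seeing the data.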

Additional observations from a re-analysis of the deposited data

How the results depend on the processing

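The number of members that fell, 23 in the reported fit, was 9 after a further quantile normalization, 8 after cyclic loess, 3 with housekeeping centring, 14 at a fold of 2 in signal, 11 at an adjusted p under 0.10, 14 with array weights and 14 with the unpaired test of the methods. Of all genes 16.7% fell in the reported fit, and 7.83%, 7.94%, 3.67%, 10.6%, 8.16%, 12% and 9.99% in the same order. Members that rose, 2 in the reported fit, numbered 10 with housekeeping centring, 0 at a fold of 2 in signal, and 1 each at an adjusted p under 0.10, in the brighter genes, with array weights and with the unpaired test. Of all genes 9.65% rose in the reported fit, and 42.4%, 4.34%, 3.88%, 3.07%, 5.93% and 5.52% in the same order. Partner genes that fell, 26 as reported, numbered 8, 10 and 6 under the 3 rescalings in the same order, 15 at a fold of 2 in signal, 14 at an adjusted p under 0.10 and 17 with the unpaired test. Partner genes that rose, 4 as reported, numbered 7 after quantile normalization, 8 with housekeeping centring, 1 with array weights and 1 with tied genes left out, and 2 each at a fold of 2 in signal, at an adjusted p under 0.10, in the brighter genes and with the unpaired test. The median log2 fold change of the members, −0.93, was −0.20, −0.15 and −0.12 under the 3 rescalings. Leaving out each array in turn gave 15 to 24 members that fell, 1 to 3 that rose, 15 to 33 partner genes that fell, 2 to 4 that rose and a median of −1.02 to −0.79. Among the fits without a control array, the lowest counts of members (16) and of partner genes (15) that fell came without control replicate 1. Without control replicate 3, 2 partner genes rose, and 1 member rose without control replicate 1 or 2. The causes were not tested.

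The replicate numbers were not taken as pairs, since the difference between replicates 1 and 2 in control and in *Mef2c*-deficient cells correlated by 0.071 over genes. With the number as a block, on the 4 arrays of replicates 1 and 2, 16 members fell and 1 rose, and 15 partner genes fell and 2 rose. Without the block the same 4 arrays gave 17 and 2 members, and 19 partner genes that fell and 2 that rose. Of all genes 11.2% fell and 4.13% rose with the block, and 11.6% and 5.68% without it.

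Named members that passed kept their direction under every alternative, and *Ino80* kept its call in each of 20. The sign reversed, after quantile normalization, cyclic loess and housekeeping centring, to 0.30, 0.43 and 0.26 in *Smarcb1*, to 0.43, 0.37 and 0.68 in *Arid3a*, to 0.57, 0.56 and 0.68 in *Kdm5c* and to 0.090, 0.24 and 0.019 in *Kat6a*, none of them called as reported. It reversed after quantile normalization and cyclic loess to 0.0021 and 0.10 in *Arid1a* and to 0.059 and 0.22 in *Chd4*, after cyclic loess and housekeeping centring to 0.18 and 0.047 in *Smarcc1*, with housekeeping centring to 0.29 in *Kdm6a*, and with the mean of probe sets to 0.80 in *Kdm5c*.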
